A study of Mus musculus with 8 samples.

Results

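The enzymes that inactivate monoamines and histamine were described in hearts with raised perilipin 5. The set was a list of 6 genes, Maoa, Maob, Hnmt, Aoc3, Aldh2 and Slc22a3, each read from the array row annotated with its symbol alone. Rows of their own were found for 5 of the 6 among 19938 genes, and Slc22a3, the organic cation transporter that takes amines into cells, was not analysed here. The set was chosen with the contrast between the genotypes in view, so the differences of its genes are given as descriptions, without a test. The hearts came from 4 male MHC-Plin5 mice and 4 male control mice of a c57/bl background, all 12 weeks old and labelled as fasted. MHC-Plin5 mice carry extra Plin5, the gene of a lipid droplet coat protein, in cardiomyocytes, per the series title, and the driver of the transgene is given by its name alone. Levels are log2 values from Affymetrix whole-transcript arrays made by the authors with RMA, a method that corrects background, normalizes arrays and summarises probes. A difference of 1 on this scale is a change of 2-fold.

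Monoamines such as noradrenaline, dopamine and serotonin, and histamine, act on the heart from sympathetic nerve endings, blood and mast cells. Cells end their action by taking them up and then altering them chemically. Monoamine oxidases A and B, encoded by Maoa and Maob, sit in the outer membrane of mitochondria and split amines oxidatively, releasing an aldehyde, ammonia and hydrogen peroxide. Form A prefers serotonin and noradrenaline, and form B prefers phenylethylamine and also acts on methylhistamine. Hnmt encodes histamine N-methyltransferase, which makes methylhistamine from histamine inside cells. Aoc3 encodes a copper amine oxidase of the cell surface, known from vessel wall and fat, and Aldh2 a mitochondrial aldehyde dehydrogenase that clears the aldehydes.

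The RefSeq promoter table of GRCm38.p6 held windows for 2 of the 5 measured genes, Maoa, which stood higher in MHC-Plin5 hearts, and Hnmt, which stood lower. They are shown so that the start regions of a higher and a lower gene can be set side by side. Each window runs from 250 bases before to 50 bases after the transcript start that the table gives for the gene, and capitals mark the GC box (GGGCGG or its reverse CCGCCC) in Maoa and the CCAAT box (CCAAT or ATTGG) in Hnmt.
Maoa, chrX:16619448-16619747, plus strand: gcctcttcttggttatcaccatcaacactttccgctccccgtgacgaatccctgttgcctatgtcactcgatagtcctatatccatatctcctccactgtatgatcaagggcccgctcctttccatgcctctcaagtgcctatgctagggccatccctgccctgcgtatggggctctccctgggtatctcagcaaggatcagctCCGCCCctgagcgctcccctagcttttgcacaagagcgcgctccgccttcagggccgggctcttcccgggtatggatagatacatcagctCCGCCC
Hnmt, chr2:24049330-24049629, minus strand: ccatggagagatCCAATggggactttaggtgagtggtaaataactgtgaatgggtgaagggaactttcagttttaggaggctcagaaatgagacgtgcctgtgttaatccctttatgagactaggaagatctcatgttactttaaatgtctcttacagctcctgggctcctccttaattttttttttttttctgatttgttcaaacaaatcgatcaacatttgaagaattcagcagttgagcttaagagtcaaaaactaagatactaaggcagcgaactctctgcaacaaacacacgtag
The Maoa window held 2 GC boxes, at bases 205 to 210 and 295 to 300 counted from the 5′ end of the window, and 0 CCAAT boxes. The Hnmt window held 0 GC boxes and 1 CCAAT box, at bases 13 to 17. At least 1 GC box stood in 35.7% of all 32851 promoter windows of this length, 2 or more in 19.5%, and at least 1 CCAAT box in 37.4%. GC content was 57.7% in the Maoa window and 39.3% in the Hnmt window, against a median of 52.7%. Neither window held the E box CACGTG, present in 7.15% of windows, or TGATGNAA, a form of the composite site of ATF4 and C/EBP proteins, present in 3.97%. Both strands were searched, none of these 4 motifs overlaps another within the 2 windows, and a match describes letters only.

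The arrays set the frame for these values. Over all 19938 genes, limma called 415 genes higher and 233 lower in MHC-Plin5 hearts, at an adjusted p under 0.05. Counts at an unadjusted p under 0.05 of the same fit are given below without the share over all genes, so nothing is read from them. Pearson correlations between any 2 hearts lay between 0.974 and 0.995, and no array duplicated another. Array medians over all rows were highest at 6.25 (control 2) and 6.18 (MHC-Plin5 4), and 5.99 to 6.04 elsewhere. Computed without the 5 genes, the first principal component carried 45.7% of the total variance, with control scores between -24.2 and -13.2. The scores were 6.85, 28.9, 42.5 and -4.02 in MHC-Plin5 1 to 4, so MHC-Plin5 4 lay nearest to the controls. The 6 cardiomyocyte markers, such as Actc1 and Tnni3, had mean log2 levels of 13.52 to 13.58 in control hearts and 13.30 to 13.57 in MHC-Plin5 hearts.

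Maoa stood higher in every MHC-Plin5 heart than in any control heart. Its log2 levels in control hearts 1 to 4 were 5.58, 5.46, 5.30 and 5.95, and MHC-Plin5 hearts 1 to 4 had 8.10, 9.26, 8.98 and 6.40. MHC-Plin5 1 to 3 were far above the controls, whereas MHC-Plin5 4 lay just above control 4, and the groups did not overlap. The group levels were 5.57 ± 0.28 for control and 8.18 ± 1.29 for MHC-Plin5 (SD, n = 4 each), a log2 difference of 2.61 (SE 0.49) or 6.11-fold. Relative to the control mean the rise was 5.78-fold, 12.8-fold and 10.6-fold in MHC-Plin5 1 to 3 and 1.78-fold in MHC-Plin5 4. Without MHC-Plin5 4 the difference was 3.21 (SE 0.25). All 4 control values lay below the median of their array, so low signal limits the size of this difference.

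Maob, the other monoamine oxidase, stood lower in the same hearts. Control hearts 1 to 4 had log2 levels of 10.57, 10.65, 10.39 and 10.42, and MHC-Plin5 hearts 1 to 4 had 9.20, 7.83, 8.34 and 9.53. The control hearts lay within 0.25 of each other and every MHC-Plin5 heart lay below them. The group levels were 10.51 ± 0.12 and 8.73 ± 0.78 (SD, n = 4 each), a log2 difference of -1.78 (SE 0.30) or 3.44-fold lower. Again MHC-Plin5 2 and 3 were farthest from the controls, with levels 6.39-fold and 4.51-fold below the control mean. MHC-Plin5 4 was nearest, at 1.96-fold below.

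The 2 oxidase genes thus moved in opposite directions in the same hearts. Taking each gene against its own control mean, the shift of Maoa less the shift of Maob was -0.06, -0.25, -0.15 and 0.47 for control hearts 1 to 4. For MHC-Plin5 hearts 1 to 4 it was 3.83, 6.36, 5.58 and 1.80. The group means of this measure were 0.00 ± 0.32 and 4.39 ± 2.02 on the log2 scale (SD, n = 4 each), and the groups did not overlap. From low to high, the MHC-Plin5 hearts ran 4, 1, 3, 2 for Maoa and 2, 3, 1, 4 for Maob, the exact reverse. For Plin5 itself, at 12.17, 12.69, 12.63 and 12.08 in MHC-Plin5 1 to 4, the order was the same as for Maoa, but its range in these hearts was 0.61 against 2.85 for Maoa. In the control hearts, whose ranges were 0.65 for Maoa and 0.25 for Maob, the orders were 3, 2, 1, 4 and 3, 4, 1, 2. With 4 hearts in a group these orders are a description.

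**Figure D1:**
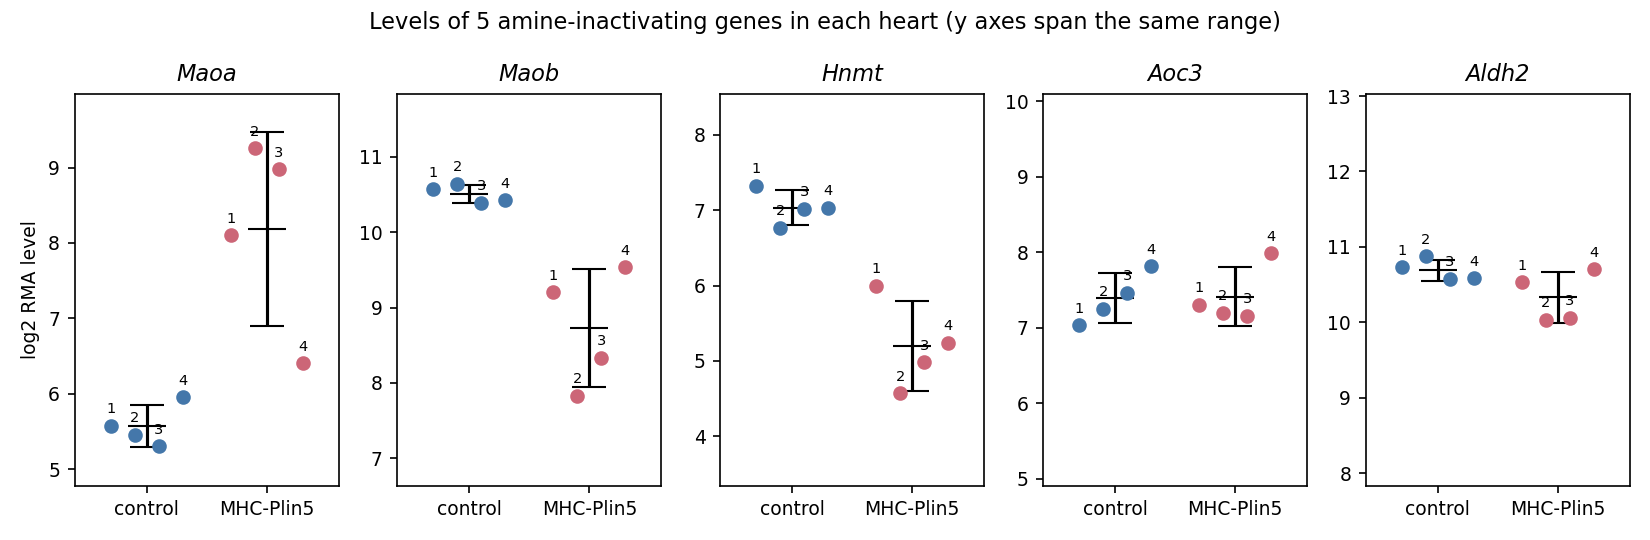
Log2 RMA level (y axis) of Maoa, Maob, Hnmt, Aoc3 and Aldh2 in each of 4 control and 4 MHC-Plin5 hearts, with heart numbers beside the points and bars for the mean and SD of each group. Maoa lay between 6.40 and 9.26 in MHC-Plin5 hearts against at most 5.95 in controls, Maob and Hnmt lay below the controls, and the groups overlapped for Aoc3 and Aldh2.

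Hnmt was also lower in every MHC-Plin5 heart. Its log2 levels in control hearts 1 to 4 were 7.32, 6.76, 7.02 and 7.03, and MHC-Plin5 hearts 1 to 4 had 5.999, 4.57, 4.98 and 5.24. The highest MHC-Plin5 heart, number 1, lay below the lowest control heart, number 2. The group levels were 7.03 ± 0.23 and 5.20 ± 0.60 (SD, n = 4 each), a log2 difference of -1.84 (SE 0.25) or 3.57-fold lower. All 4 MHC-Plin5 values lay below the median of their array, so low signal limits the size of this difference. Unlike Maoa and Maob, Hnmt was nearest to the controls in MHC-Plin5 1, at 2.05-fold below their mean, while MHC-Plin5 4 was 3.47-fold below. Hnmt, whose enzyme makes methylhistamine, and Maob, whose enzyme also acts on methylhistamine, thus both stood lower in RNA. Both genes were picked on this contrast, and the arrays measured neither enzymes nor histamine.

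Aldh2, whose enzyme removes the aldehydes that amine oxidases produce, had overlapping groups and was not called. Control hearts 1 to 4 had log2 levels of 10.73, 10.87, 10.58 and 10.59, and MHC-Plin5 hearts 1 to 4 had 10.53, 10.03, 10.06 and 10.70. MHC-Plin5 2 and 3 lay below every other heart, and MHC-Plin5 1 lay just below the lowest control. Only MHC-Plin5 4 lay among the controls, so the groups overlapped. The group levels were 10.69 ± 0.14 and 10.33 ± 0.34 (SD, n = 4 each), a log2 difference of -0.36 (SE 0.16). The hearts ran in the same order as for Maob within both groups, 3, 4, 1, 2 in control and 2, 3, 1, 4 in MHC-Plin5. The array medians also ran 3, 4, 1, 2 in control, but 3, 1, 2, 4 in MHC-Plin5. The part of the array medians in these orders was not tested, and the orders are a description.

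Aoc3, the cell-surface amine oxidase, had nearly equal group means. Its log2 levels in control hearts 1 to 4 were 7.04, 7.25, 7.47 and 7.81, and MHC-Plin5 hearts 1 to 4 had 7.30, 7.20, 7.16 and 7.99. The highest heart of each group was number 4, and the groups overlapped over most of their range. The group levels were 7.39 ± 0.33 and 7.41 ± 0.39 (SD, n = 4 each), with a log2 difference of 0.02 (SE 0.20) that turned to -0.17 without MHC-Plin5 4 and to -0.22 without control 2 and MHC-Plin5 4. The mean log2 level of 6 adipocyte markers, such as Car3, Retn and Cidec, was 5.77, 6.45, 5.64 and 7.90 over control hearts 1 to 4 and 5.52, 5.54, 5.67 and 6.38 over MHC-Plin5 hearts 1 to 4. It too was highest in heart 4 of each group, and by limma 0 of the 6 markers were called, with 0 at an unadjusted p under 0.05. The 7 markers of smooth muscle and pericytes had mean levels of 9.56 to 9.93 in control and 9.34 to 10.30 in MHC-Plin5 hearts, with the potassium channel gene Kcnj8 called lower (-0.43, SE 0.10, limma adjusted p = 0.0377), a call lost when any single control or MHC-Plin5 2 or 3 was left out. Of these 7 markers 3 had an unadjusted p under 0.05, Kcnj8, Rgs5 (-0.36, SE 0.10) and Abcc9 (-0.45, SE 0.15). The contractile genes Acta2, Tagln and Cnn1 had log2 differences above 0, of 0.34 (SE 0.30), 0.13 (SE 0.33) and 0.62 (SE 0.78). Myh11, also a contractile gene, went the other way, with -0.38 (SE 0.18). The MHC-Plin5 means of Acta2, Tagln and Cnn1 all rested largely on MHC-Plin5 3, which had log2 levels of 12.75, 9.36 and 11.26. The part of fat or vessel cells in the Aoc3 values was not tested.

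**Figure D2:**
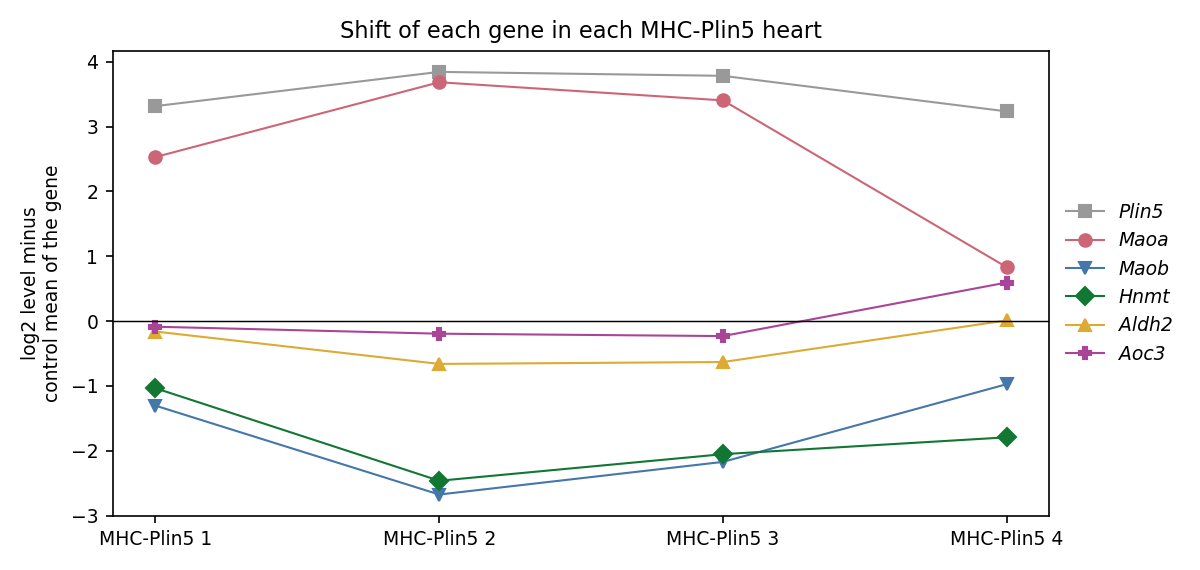
Log2 level minus the control mean of each gene (y axis) in MHC-Plin5 1 to 4 (x axis), for Plin5 and the 5 genes, with lines joining the hearts for reading only. Maoa shifted by 3.68 in MHC-Plin5 2 and 0.83 in MHC-Plin5 4, and Maob by -2.68 and -0.97 in the same hearts, while the shift of Plin5 stayed between 3.23 and 3.84.

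In the fit over all genes 1 of the 5 genes was called higher, Maoa, where 2.08% of all genes were, and 2 were called lower, Maob and Hnmt, where 1.17% were. Either way, 3 of the 5 were called, where 3.25% of all genes were. The groups did not overlap in these 3 genes, as in 11.2% of all genes. The genes were picked on this contrast, so nothing is read from these counts. The call of Maoa was lost when control 1, 2 or 3 or MHC-Plin5 2 was left out, and Maob and Hnmt stayed called with each heart left out. The spread within the MHC-Plin5 group was wide for the 3 genes, with SDs of 1.29, 0.78 and 0.60, against a median SD of 0.17 over all genes in these hearts and 0.15 in the controls. In whole hearts, fewer cells of a type and less RNA per cell cannot be told apart.

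**Figure D3:**
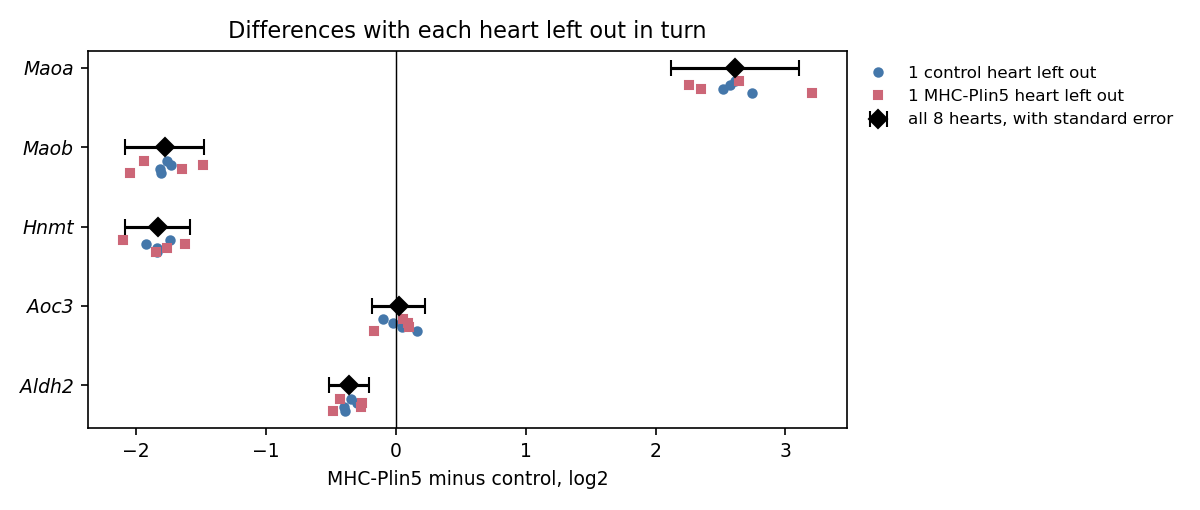
Log2 difference, MHC-Plin5 minus control (x axis), of the 5 genes with all 8 hearts (black, bar for the standard error of the limma fit) and with 1 control heart (blue) or 1 MHC-Plin5 heart (red) left out. Maoa ranged from 2.25 to 3.21, Maob from -2.05 to -1.48 and Hnmt from -2.10 to -1.63, while Aoc3 fell on both sides of 0.

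Maoa and Maob lie next to each other on the X chromosome, and their neighbours were set beside them. Among protein-coding genes with a row of their own, none lies between them in the RefSeq table. The 3 nearest such genes beyond Maoa, the receptor genes Gpr34 and Gpr82 and the testis gene Cypt1, had MHC-Plin5 minus control values of 0.12 (SE 0.11), -0.10 (SE 0.12) and 0.07 (SE 0.10) on the log2 scale. The 3 nearest beyond Maob, Ndp, Efhc2 and Fundc1, had -0.09 (SE 0.10), -0.14 (SE 0.11) and -0.12 (SE 0.10). The groups overlapped in all 6, and 0 of the 6 were called by limma, with adjusted p values from 0.599 to 0.816 and 0 of 6 at an unadjusted p under 0.05. Apart from Fundc1, these neighbours had mean log2 levels between 3.20 and 5.57 in the groups, below the array medians. Low signal thus limits what they can show. Fundc1 encodes a mitochondrial outer membrane protein of mitophagy, and its log2 level was 9.94 for control and 9.82 for MHC-Plin5.

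Other genes of amine handling were taken from 7 lists on amine oxidases, methyl and sulfo transfer, aldehyde handling, transport, synthesis, receptors and transcription factors. Of 63 measured genes outside the set, 2 were called higher and 1 lower, or 3.17% and 1.59%, against 2.08% and 1.17% of all genes. Their median log2 difference was -0.08, against -0.03 over all genes. The groups did not overlap in 7 of the 63, or 11.1%, against 11.2% of all genes.

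Among the other oxidases 0 of 5 were called by limma, and 0 of 5 had an unadjusted p under 0.05. Aoc1, diamine oxidase, which degrades histamine outside cells, had a level of 4.45 ± 0.13 for control and 4.40 ± 0.12 for MHC-Plin5 (SD, n = 4 each). Both levels lay below the array medians, so low signal limits what Aoc1 can show. Rnls, the gene of the flavoprotein renalase, had a log2 difference of -0.51 (SE 0.25), and the spermine oxidase gene Smox one of 0.16 (SE 0.11). None of the 5 oxidases had separate groups.

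Comtd1, which encodes a protein with a methyltransferase domain, was called higher. Control hearts 1 to 4 had log2 levels of 6.64, 6.99, 6.86 and 6.71, and MHC-Plin5 hearts 1 to 4 had 7.43, 7.64, 7.77 and 7.14. The groups did not overlap, and MHC-Plin5 4 was again the nearest to the controls. Its log2 difference was 0.70 (SE 0.14, limma adjusted p = 0.0257), and the call was lost when control 1, 3 or 4 or MHC-Plin5 2 or 3 was left out. It was the 1 called gene of 5 in methyl and sulfo transfer. Inmt, an N-methyltransferase of indole amines, had a log2 difference of -1.02 (SE 0.37), with a limma adjusted p of 0.181. Sult1a1, a phenol sulfotransferase, had -0.73 (SE 0.24) with 0.149.

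Of 12 other aldehyde-handling genes, 1 was called higher and 1 lower. Aldh9a1, which oxidises aminoaldehydes, was lower, at 9.73, 9.82, 9.57 and 9.11 over control hearts 1 to 4 and 8.72, 8.70, 8.87 and 8.81 in MHC-Plin5 1 to 4. For this gene the MHC-Plin5 hearts lay close together and the controls were spread, with control 4 nearest to them. Its log2 difference was -0.78 (SE 0.15, limma adjusted p = 0.0174). Akr1a1, an aldehyde reductase, was higher, at 11.81 ± 0.11 against 11.39 ± 0.07 (SD, n = 4 each), a log2 difference of 0.42 (SE 0.09, limma adjusted p = 0.0385). Aldh3a2, the fatty aldehyde dehydrogenase, had 0.32 (SE 0.09) and an adjusted p of 0.0939. Leaving out control 1, 2 or 3 or MHC-Plin5 2 ended the call of Aldh9a1, and leaving out any single heart but MHC-Plin5 4 ended that of Akr1a1.

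**Figure D4:**
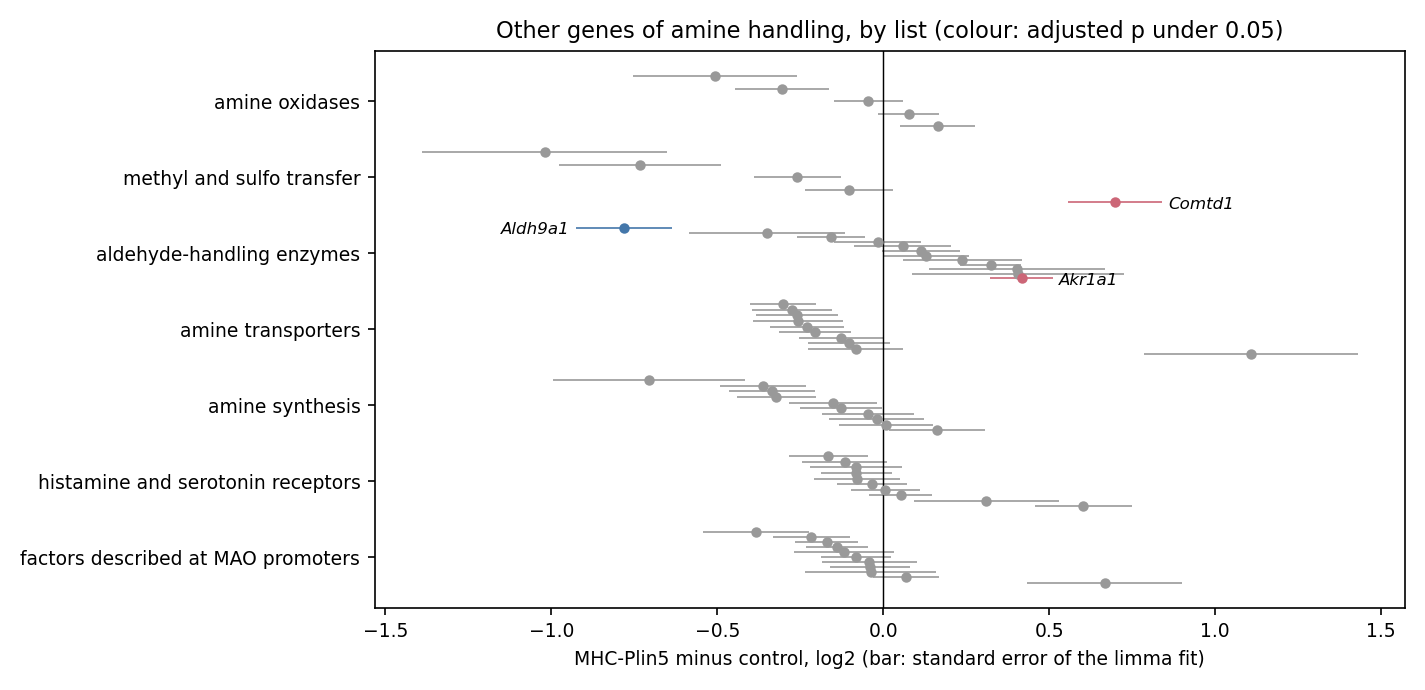
Log2 difference, MHC-Plin5 minus control (x axis), of 63 other genes in 7 lists of amine handling (y axis), with bars for the standard error of the limma fit. Comtd1 and Akr1a1 (red) were called higher and Aldh9a1 (blue) lower, and all other genes (grey) were not called.

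Among 10 measured transporters 0 were called by limma, and 3 had an unadjusted p under 0.05. Slc22a4, an organic cation carrier best known for ergothioneine, had the largest difference, with log2 levels of 7.36, 7.79, 7.35 and 7.27 over control hearts 1 to 4 and 7.90, 9.35, 9.15 and 7.80 in MHC-Plin5 1 to 4. The groups just failed to overlap, MHC-Plin5 2 and 3 were highest as for Maoa, and the difference of 1.11 (SE 0.32) had a limma adjusted p of 0.0983. The noradrenaline transporter gene Slc6a2 had -0.10 (SE 0.12) and the plasma membrane monoamine transporter gene Slc29a4 had -0.13 (SE 0.13). Slc6a2 and Slc29a4 had mean log2 levels between 5.42 and 5.89 in the groups, below the array medians, so low signal limits them. In all, 9 of the 10 transporters lay below 0, where the median difference over all genes was also below 0, at -0.03. The share of all genes below 0 was not computed, so nothing is read from this count.

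Among 10 genes of amine synthesis 0 were called by limma, 4 had an unadjusted p under 0.05, and 8 lay below 0. The median difference over all genes was also below 0, at -0.03, and no share over all genes was computed for these counts. Th and Dbh, the genes of the enzymes that begin and end noradrenaline synthesis, differed by -0.15 (SE 0.13) and -0.33 (SE 0.13) on the log2 scale. Dbh lay at 4.82 for control and 4.48 for MHC-Plin5, below the array medians, and Th lay near them, at 6.06 and 5.90. Low signal thus limits what these genes can show. Ddc, the decarboxylase that makes dopamine and serotonin, had -0.71 (SE 0.29) with a limma adjusted p of 0.243. Its levels were 5.51 and 5.33 in MHC-Plin5 2 and 3, below every control heart, and 6.89 in MHC-Plin5 4, above all controls except control 2. Hdc, which makes histamine, had -0.02 (SE 0.14). The 6 markers of sympathetic neurons had mean levels of 5.29 to 5.56 in control and 5.13 to 5.44 in MHC-Plin5 hearts, with Chrna3 lowest at 4.53. Such means lay below the array medians, so low signal limits what the markers can show. By limma 0 of these 6 were called, and 2 had an unadjusted p under 0.05.

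Of the 7 mast cell markers 1 was called, the protease gene Cpa3, which was lower (log2 difference -1.10, SE 0.14, limma adjusted p = 0.00241). Cpa3 lay at 6.57, 6.44, 6.39 and 6.58 over control hearts 1 to 4 and at 5.59, 4.99, 5.35 and 5.67 in MHC-Plin5 1 to 4, so its groups did not overlap, and it stayed called with each heart left out. The mean level of the 7 markers was 5.18 to 5.45 in control hearts and 5.04, 4.90, 4.94 and 5.32 in MHC-Plin5 1 to 4. From low to high, this mean and Cpa3 both ran through MHC-Plin5 2, 3, 1 and 4, which over these 4 hearts is the order of Maob and the reverse of that of Maoa. The chymase gene Cma1 had a log2 difference of -0.29 (SE 0.14) and Kit of 0.03 (SE 0.10), and the IgE receptor gene Ms4a2 was lowest, at 3.73. The part of mast cells in the values of Maoa, Maob and Hnmt was not tested.

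Among 10 receptors of histamine and serotonin 0 were called by limma, and 1 had an unadjusted p under 0.05. The histamine receptor genes Hrh1 and Hrh2 differed by 0.01 (SE 0.10) and -0.08 (SE 0.11) on the log2 scale, and the serotonin receptor gene Htr2b by 0.31 (SE 0.22). Htr2a, another serotonin receptor gene, stood at the edge of the threshold, with 0.60 (SE 0.15) and a limma adjusted p of 0.05005 that was not below it. It was called higher in 8 of 17 alternative fits. Among 11 transcription factors and cofactors described at monoamine oxidase promoters 0 were called by limma, and 2 had an unadjusted p under 0.05. These were Egr1, with a log2 difference of 0.67 (SE 0.23), and Sp4, with -0.38 (SE 0.16), and both had overlapping groups. Sp1 had a log2 difference of 0.07 (SE 0.10), the activator Klf11 -0.12 (SE 0.15), the repressor Cdca7l -0.04 (SE 0.14) and Foxo1 -0.22 (SE 0.12), and the groups overlapped for each of them.

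The genes with the most similar profiles were found by the root mean square difference over the 8 hearts between log2 values, each minus the control mean of its gene. For Maoa they were Ostn, the secreted peptide osteocrin, at 0.36, the transcription factor Tbx15 at 0.49 and the deubiquitinating enzyme Uchl1 at 0.49. The shifts of Ostn in MHC-Plin5 1 to 4 were 2.56, 3.33, 3.67 and 1.28, so MHC-Plin5 4 was the lowest, as for Maoa. For Maob they were the amino acid transporter Slc36a2 at 0.21, the kinase Wnk2 at 0.27 and the glutathione transferase Gstk1 at 0.30. The shifts of Slc36a2 were -1.20, -2.51, -2.40 and -0.80, in the same order as those of Maob. For Hnmt they were Fah, a hydrolase that ends tyrosine breakdown, at 0.28, the peptidase Mme at 0.34 and the desaturase Scd4 at 0.34. Fah shifted by -1.52, -2.18, -1.74 and -1.94, so that here too MHC-Plin5 1 was nearest to the controls and MHC-Plin5 2 farthest. These genes were picked for their likeness, and no test attaches to it.

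**Figure D5:**
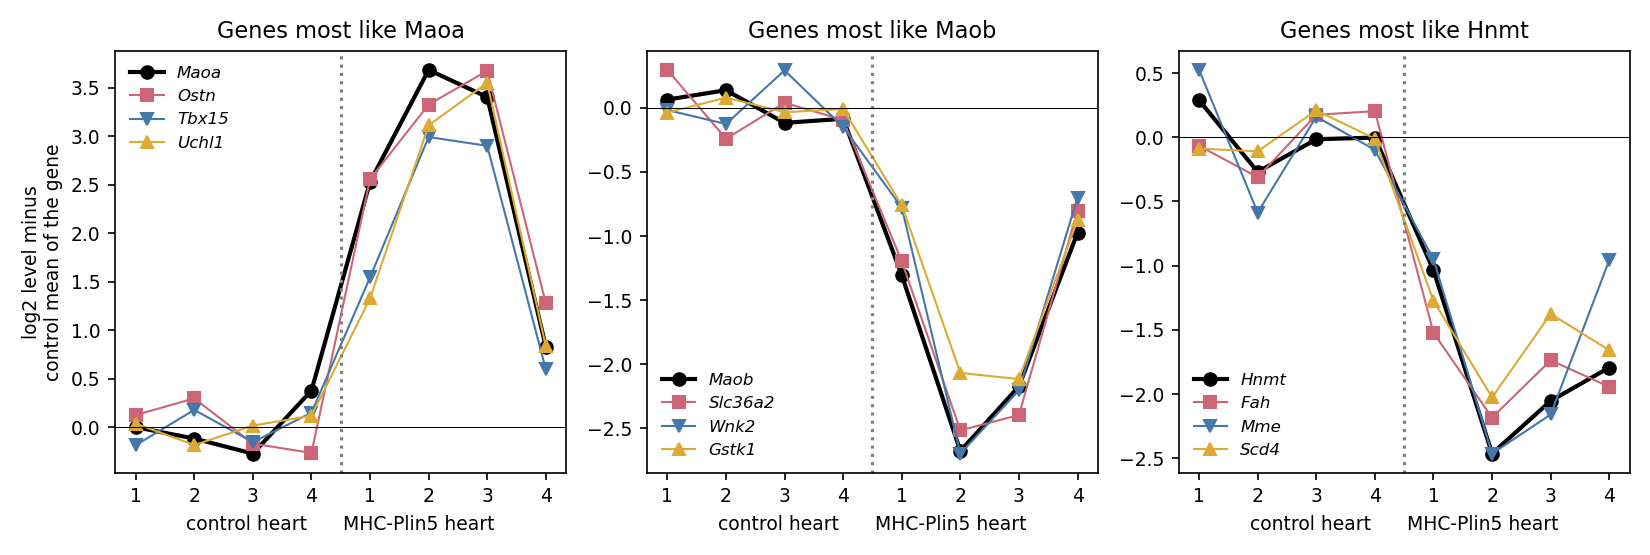
Log2 level minus the control mean of the gene (y axis) in 4 control and 4 MHC-Plin5 hearts (x axis, heart numbers) for Maoa, Maob and Hnmt (black) and the 3 genes nearest to each, with lines joining the hearts for reading only. MHC-Plin5 4 lies nearest to the controls in the panel of Maoa, with a shift of 0.83, and MHC-Plin5 1 in that of Hnmt, with -1.04.

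Markers of other cells the hearts could hold were read in the same arrays. The 5 atrial markers, such as Myl7 and Nppa, had mean levels of 9.42, 8.04, 11.63 and 10.57 in MHC-Plin5 1 to 4 and 7.25 to 11.33 in control hearts. The 6 cardiomyocyte markers had 13.49, 13.39, 13.30 and 13.57 in MHC-Plin5 1 to 4. The 6 fibroblast markers had 9.07 to 9.61 in control and 9.22 to 10.05 in MHC-Plin5 hearts, and the 6 macrophage markers 7.92 to 8.42 and 8.15 to 8.83. All 6 fibroblast, all 6 macrophage and all 5 atrial markers lay above 0 in difference. Below 0 lay 5 of 6 cardiomyocyte, 3 of 3 Schwann cell, 3 of 6 endothelial and 1 of 3 blood cell markers. The share of all genes above or below 0 was not computed, so nothing is read from these counts. The 6 endothelial markers had 10.33 to 10.50 in control and 10.29 to 10.46 in MHC-Plin5 hearts, the 3 Schwann cell markers 5.87 to 6.09 and 5.59 to 5.94, and the 3 blood cell markers 6.45 to 7.15 and 6.78 to 7.18. By limma 0 genes of these 7 lists were called, and at an unadjusted p under 0.05 there was 1 atrial, 1 fibroblast, 1 Schwann cell and 2 blood cell markers and 0 in the other 3 lists. The part of any of these cells in the values of Maoa, Maob and Hnmt was not tested.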

How the data were processed

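The deposited values are on a log2 scale and come from RMA, run by the authors with Affymetrix Expression Console according to the submitters' processing notes. Version, summary level and genome build were not given in the sources used here. Of the 35556 rows, GEO's platform annotation gave 1 symbol to 21789, several to 1621 and none to 12146. Where several rows carried a symbol, the brightest by its mean over the 8 hearts was used, and each of the 5 genes of the set had 1 row. Scanner files and dates were not used here, so no batch was tested, and 4 arrays per group limit the precision.

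All 19938 genes were fitted with lmFit and eBayes of limma 3.58.1 under R 4.3.3, on genotype alone, with no filter, two-sided tests and Benjamini-Hochberg adjustment over all genes. Standard errors come from this fit, which was tested on simulated data. Tables and plots were made in Python 3.11.15 (pandas 2.3.3, matplotlib 3.10.9). The genes of the set, the lists and the markers were chosen with earlier results of these data known. Beyond the set, the text names called genes of the 7 lists, well-known genes of amine handling, and the 3 genes most like Maoa, Maob and Hnmt. Rnls, Smox, Inmt, Sult1a1, Slc22a4, Htr2a, Egr1, Sp4, the neighbouring genes and the markers shown were named after their values were seen. Each heart was treated as 1 animal, as the series text names 4 mice of each kind. Hearts with the same number were not taken as pairs. Alternatives were each heart left out, further quantile normalization, median centring, the mean over a gene's rows, a filter at a mean of 5, trended and robust variances, array weights and the heart number as a block. Added after the data were seen were the array median as a covariate and a fit without the 2 arrays of highest median.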

Additional observations from a re-analysis of the deposited data

Results flagged for a closer look

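In 64 groups of 4 hearts, taken from the named genes, 2 held a heart that stood far from the other three, where chance gives about 1 in 20. Aoc1 had a log2 level of 4.58 in MHC-Plin5 2, while the other MHC-Plin5 hearts lay between 4.33 and 4.36. Slc6a2 had 5.73 in control 2, which is an array with a high median, while the other controls lay between 5.42 and 5.47. In these hearts Aoc1 and Slc6a2 lay below the array medians, so low signal limits what the gaps can show.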

How the results depend on the processing

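The log2 differences of the 5 genes stayed within 1 replicate SD of the reported value in all 85 recomputed values. This was largely fixed in advance, because leaving out 1 of 4 hearts cannot move a difference that far. The row mean, the filter, the trended variances and the block left the differences unchanged. Leave-one-out ranges were 2.25 to 3.21 for Maoa, -2.05 to -1.48 for Maob, -2.10 to -1.63 for Hnmt, -0.17 to 0.16 for Aoc3 and -0.48 to -0.26 for Aldh2. The difference of Maoa less that of Maob ran from 3.74 to 5.26 with a heart left out and from 4.03 to 5.17 otherwise. Trended and robust variances left 0 of the 5 genes called higher, and leaving out a heart left 0 to 1. Array weights called 884 genes higher and 741 lower, and 4 higher and 4 lower of the 63 other genes of amine handling. Further quantile normalization called 355 genes lower. With a heart left out the called genes were 170 to 614 higher and 56 to 560 lower, and those of amine handling 0 to 3 higher and 0 to 3 lower. Of the leave-outs, 560 lower genes and 3 lower genes of amine handling were called without MHC-Plin5 4. Hearts of equal number deviated from their group means with correlations of 0.19, 0.03, -0.11 and -0.04 for numbers 1 to 4, and 1 of 4 correlated best with its own number. With the heart number as a replicate block, 330 genes were called higher and 177 lower, and Akr1a1, Kcnj8 and Brap were no longer called (adjusted p = 0.0987, 0.0887 and 0.0873, limma). Median centring ended the call of Kcnj8 (0.0867). Htr2a was called higher in 8 of 17 alternatives, with limma adjusted p values from 0.0208 to 0.153. Leaving out control 2 and MHC-Plin5 4 ended the calls of Aldh9a1, Kcnj8 and Brap (adjusted p = 0.0541, 0.0694 and 0.0625, limma). The cause of these changes was not tested, and the leave-outs also had fewer hearts. Low array signal limits Maoa in the controls and Hnmt in the MHC-Plin5 hearts, where all 4 values lay below the median of their array.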

Other observations

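The genes around the other members gave few calls. Of the 3 measured protein-coding neighbours on each side of Aldh2, Brap, which encodes a BRCA1-associated protein, was higher in MHC-Plin5 hearts, with a log2 difference of 0.41 (SE 0.09, limma adjusted p = 0.0406), a call that ended when any single control or MHC-Plin5 2 or 3 was left out. The acyl-CoA dehydrogenase genes Acad10 and Acad12 beside it had -0.25 (SE 0.12) and -0.27 (SE 0.16) and were not called. Around Aoc3, its neighbour and relative Aoc2 had -0.30 (SE 0.14), the autophagy gene Becn1 had 0.34 (SE 0.09, limma adjusted p = 0.089), and by limma 0 of 6 were called, with 3 at an unadjusted p under 0.05. Around Hnmt 0 of 6 were called by limma, and 0 of 6 had an unadjusted p under 0.05, with log2 differences from -0.21 to 0.16. Apart from Spopl, the Hnmt neighbours had mean log2 levels between 3.15 and 4.66 in the groups, below the array medians, so low signal limits them.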
